A study of Caenorhabditis elegans with 2 samples.

Results

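The proneural basic helix-loop-helix (bHLH) genes of *Caenorhabditis elegans* examined here are 8 genes out of 19985 annotated protein-coding genes, namely *hlh-14*, *hlh-2*, *hlh-3*, *hlh-4*, *hlh-6*, *lin-32*, *cnd-1* and *ngn-1*. They were chosen by a measured value, because a region of high ETS-7 signal lies near *hlh-14*, and the remaining 7 were added as genes of the same kind. The study mapped where ETS-7, a transcription factor of the ETS family, contacts the genome. It used ChIP-seq, which pulls down chromatin fragments bound by a protein with an antibody and sequences their DNA. The material was whole early embryos, 3 hours after synchronization by bleaching of eggs, from hermaphrodites of the transgenic strain OP487, in which ETS-7 carries a GFP-FLAG tag at its C terminus, and the antibody recognised GFP. There was 1 group of 2 biological replicates, numbered 3 and 4, from the same strain, and no other condition. All cells of the embryo were pooled, so a site bound in few cells and a site bound weakly in many cannot be told apart.

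Proneural bHLH proteins are transcription factors that commit cells to a neural fate. They bind DNA as dimers, usually of a class II protein such as an Achaete-Scute, Atonal, NeuroD or Neurogenin relative with a broadly expressed class I (E) protein, at the E-box sequence CANNTG. In the worm HLH-2 is the class I partner, HLH-3, HLH-4, HLH-6 and HLH-14 are Achaete-Scute relatives, LIN-32 is the Atonal relative, CND-1 the NeuroD relative and NGN-1 the Neurogenin. ETS domains bind a GGAA core, and CCGGAA is a common form of such a site.

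Sequences of 201 bp centred on the summit, the position of highest signal in a region, are given for the region that led to the choice of the genes and for 2 regions in the windows of *cnd-1* and *hlh-4*, because these hold the matches described below. They are the forward strand of the WBcel235 (ce11) genome, 5′ to 3′, and capitals mark CCGGAA on either strand and E-boxes CANNTG. The order is *hlh-14* (II:5735951-5736151), *cnd-1* (III:5245104-5245304) and *hlh-4* (III:9741786-9741986).
hlh-14, past the 3' end: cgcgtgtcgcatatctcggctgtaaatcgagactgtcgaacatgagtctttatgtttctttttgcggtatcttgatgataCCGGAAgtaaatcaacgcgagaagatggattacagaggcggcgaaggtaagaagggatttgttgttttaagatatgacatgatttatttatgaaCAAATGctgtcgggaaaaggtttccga
cnd-1, upstream: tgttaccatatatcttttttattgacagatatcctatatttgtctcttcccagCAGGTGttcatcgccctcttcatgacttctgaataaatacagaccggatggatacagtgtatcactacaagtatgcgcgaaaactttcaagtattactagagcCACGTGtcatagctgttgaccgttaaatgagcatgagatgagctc
hlh-4, upstream: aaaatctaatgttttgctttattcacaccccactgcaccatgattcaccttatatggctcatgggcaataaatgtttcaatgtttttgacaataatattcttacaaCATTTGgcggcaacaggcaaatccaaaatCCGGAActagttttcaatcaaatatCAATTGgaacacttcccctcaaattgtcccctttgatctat

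The files give, for each region, a signal assigned by the authors, which has no stated scale and is used here to describe and rank regions within a list. The lists on ce11 hold 595 optimal regions (those the authors selected by irreproducible discovery rate, IDR), 11626 regions called on the pooled replicates at a relaxed threshold, 16227 of replicate 3 and 15533 of replicate 4. The authors name the pooled list as peaks and background, used as input for IDR. Its regions outside the optimal list may therefore include background. Signals start at 80.7 in the optimal list, 27.5 in the pooled list, 14.7 in that of replicate 3 and 12.9 in that of replicate 4. The optimal and pooled lists share a scale, and each replicate's list has its own. Read counts are not in these lists, so depth is unknown, and both replicates' values are given as the measure of error. With 1 group of 2 samples and genes picked with results known, no test was made.

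The region that led to the choice of these genes lay at II:5735811-5736290, with its summit 2844 bp from the 5' end of *hlh-14*, a gene needed in the lineage that gives rise to the PVQ, HSN and PHB neurons. That gene is on the reverse strand at II:5737785-5738895, so the region lay beyond its 3' end, by 1734 bp, and not in its upstream sequence. Its signal was 150.5 in the pooled list, 66.9 in replicate 3 and 84.3 in replicate 4. It ranked 131 among the pooled and the optimal regions, 184 in replicate 3 and 103 in replicate 4. Both replicates thus placed it high, and their summits lay 27 and 3 bp from that of the pooled region. Against the median of the 595 highest regions of each list, its signal was 1.39 times as high in the pooled list, 1.21 times in replicate 3 and 1.52 times in replicate 4. These values describe the region and were used to choose the genes, so they support nothing further.

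The summit was in intergenic sequence. After *hlh-14*, the closest 5' end among protein-coding genes belonged to *C18A3.11*, at 5018 bp, followed by *C18A3.7* at 5608 bp and *rab-3*, which encodes a synaptic vesicle GTPase, at 8198 bp. The noncoding RNA gene *C18A3.22* lay 515 bp away, and the nearest gene for a tRNA, snoRNA, snRNA, miRNA or rRNA was 30777 bp away. The sequence printed above holds ACCGGAAG, the longer ETS-type match, at II:5736030-5736037 on the forward strand, with its centre 17 bp from the summit. Among all 595 optimal regions 6.72% held this octamer on either strand in a 201-bp window, and 3.13% of the other pooled regions did. A lower pooled region followed at II:5734782-5735261, with a pooled signal of 32.7 and its summit 2763 bp past the 3' end of *hlh-14*. Replicate 4 gave 22.7 at a summit 2743 bp past that end. Replicate 3 gave 23.5 at 3125 bp, and it also had a region of 19.7 closer to the pooled summit, at 2924 bp.

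The window examined for each gene runs from 5000 bp upstream of its 5' end to its 3' end. In these windows the optimal list held no region for any of the 8 genes (0 of 8), where 5.15% of all protein-coding genes had one. The pooled list held 9 regions at 5 of the 8 genes, *hlh-14*, *hlh-2*, *hlh-4*, *lin-32* and *cnd-1*, where 53.4% of all genes had at least 1. In the list of replicate 3, 16 regions fell at 7 of the 8 genes, against 64.9% of all genes, and in that of replicate 4, 12 regions fell at 6 of them, against 63.5%. The counts of genes were not tested against those shares. The windows had a median length of 6475 bp, against 7026 bp over all genes, and held 1.13 pooled regions on average, against 0.988 over all genes, with 4 of the 9 regions at *cnd-1*.

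**Figure D1:**
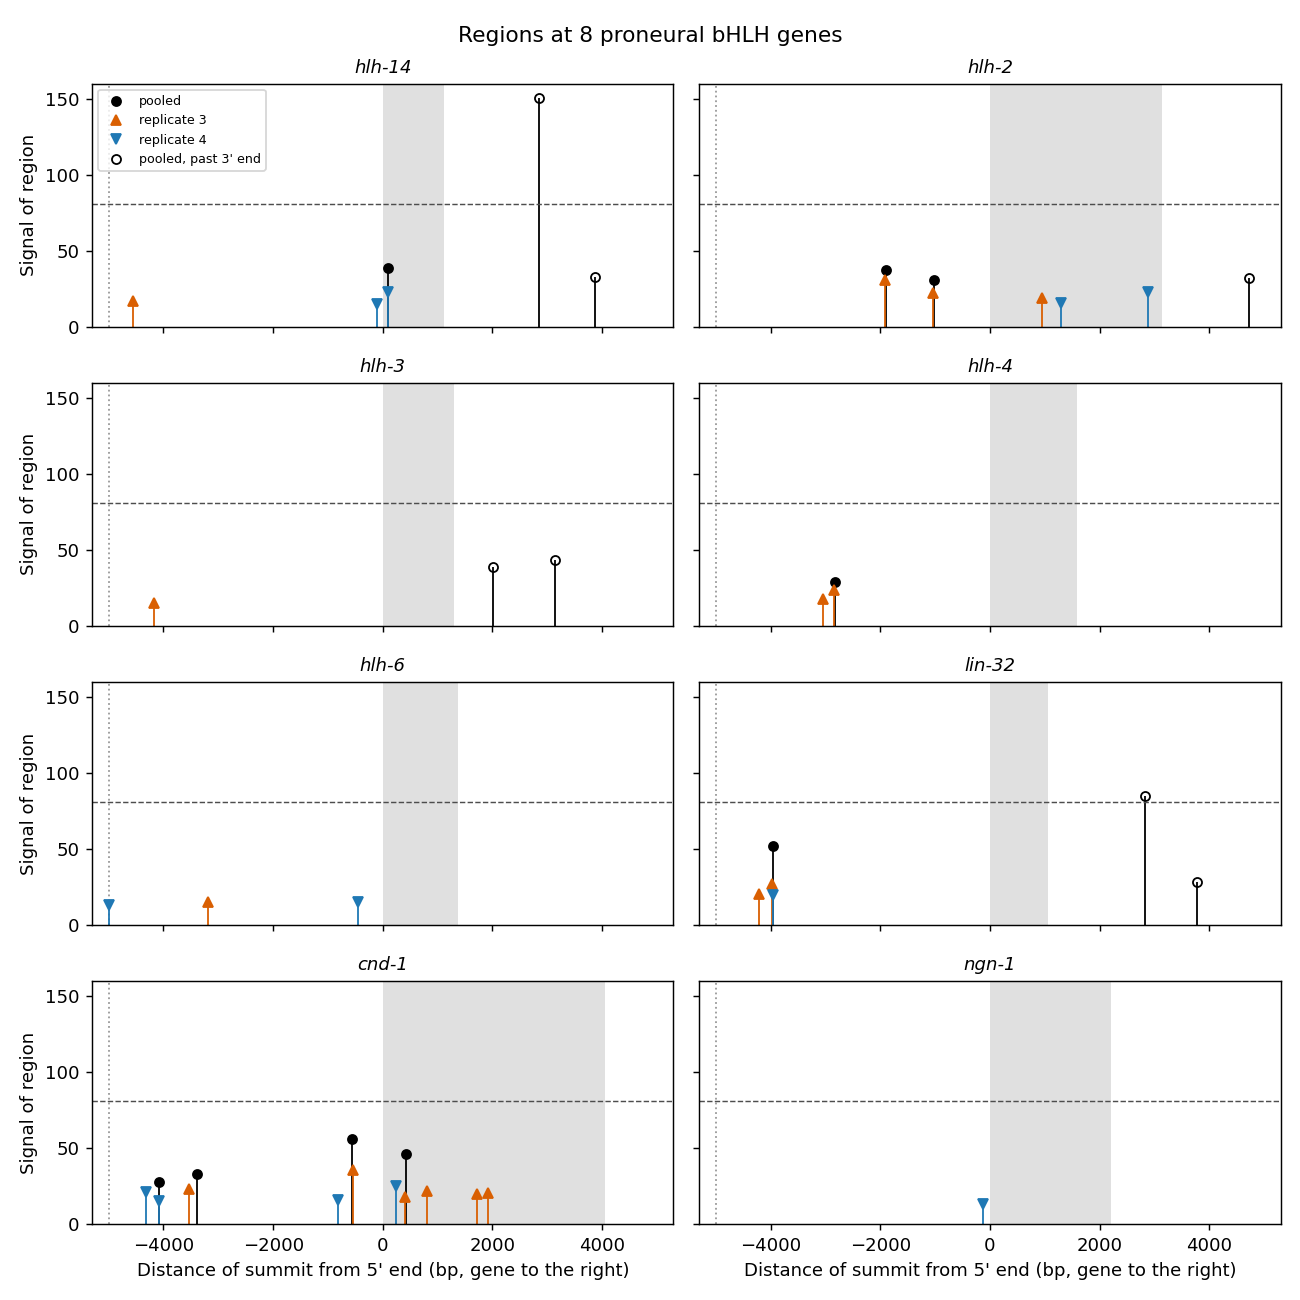
Signal of each region (y axis, the authors' value) by the distance of its summit from the gene's 5' end in bp (x axis, upstream to the left), for the 8 genes. Filled circles are pooled regions in the window, triangles those of replicates 3 (up) and 4 (down), open circles pooled regions up to 5000 bp past the 3' end. Grey marks the gene, the dotted line the 5000 bp limit, and the dashed line the lowest optimal signal, 80.7, which applies to pooled regions alone. No filled circle reaches it, the highest being 55.8 at *cnd-1*, and the open circles at *hlh-14* (150.5) and *lin-32* (84.7) lie above it.

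The 9 pooled regions in the windows had signals from 27.7 to 55.8, with a median of 37.3, close to the median of the whole pooled list, 34.9. Of the 9, 5 lay above that median, and the highest was well below the 80.7 at which the optimal list starts. Their summits were intergenic in 6 cases, in a 5' UTR in 2, in an intron in 1 and in a coding exon in 0. Of all pooled summits, 43.2% were intergenic, 2.54% in a 5' UTR, 30.6% in an intron and 20.2% in coding exons. The member gene had the nearest protein-coding 5' end at 7 of the 9, which were those of *hlh-14*, *hlh-2* and *cnd-1*. Of the 9 summits, the closest to a small RNA gene lay 6823 bp from it. All 36-base stretches of these regions and of the region beyond *hlh-14* occur once in the genome.

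The class I partner gene, *hlh-2* (I:7190788-7193920, reverse strand), had 2 pooled regions upstream and both were found in replicate 3 alone. The region at I:7195573-7196052, with its summit 1893 bp upstream, had a pooled signal of 37.3 and a signal of 30.7 in replicate 3, rank 1548 in that list. The region at I:7194692-7195171, with its summit 1012 bp upstream, had a pooled signal of 31.0 and a signal of 22.4 in replicate 3. Replicate 4 had no region overlapping either. Its own regions at this gene were in the 3' UTR, with a signal of 22.9, and in an intron, with a signal of 15.6, and neither was in the pooled list. Replicate 3 also had a region inside the gene, in a coding exon, with a signal of 18.8, which overlapped the intronic region of replicate 4. A replicate 4 region with a signal of 15.1 lay upstream, 234 bp outside the window.

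Among the Achaete-Scute relatives, *hlh-14* had 1 pooled region in its window. It lay at II:5738562-5739041 over the gene's 5' end, with its summit in the 5' UTR, next to the start codon, and its pooled signal was 38.8, rank 4217. Replicate 4 had a signal of 23.2 there, rank 2916, and replicate 3 had no region overlapping it. The only region of replicate 3 in the window was 4551 bp upstream, in an intron of *F10C1.9*, with a signal of 16.8. The region at the start of *hlh-14* was thus found in replicate 4 and in the pooled list, unlike the one beyond its 3' end, which was high in both replicates.

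The gene *hlh-4* (III:9737472-9739054, reverse strand), which acts in the ADL sensory neurons, had 1 pooled region, at III:9741646-9742125, with a pooled signal of 28.9, rank 10107. Replicate 3 had a signal of 24.0 there, rank 3656, and replicate 4 had none. Its summit lay 2832 bp upstream, in an intron of *T05G5.1*, whose 5' end was nearer, at 1453 bp. The genes *hlh-3* (II:9086608-9087908), which promotes differentiation of the HSN neurons, and *hlh-6* (II:9613463-9614828), which acts in the pharyngeal glands, had no pooled region in the window. At *hlh-3* the only entry was a region of replicate 3 with a signal of 15.2, rank 14835 of 16227, at 4165 bp upstream. At *hlh-6*, replicate 3 had a region of 15.2 in the 3' UTR of *dnj-20* and replicate 4 had one of 15.2 at 457 bp upstream and one of 13.1 at 4998 bp. The *hlh-6* regions ranked 14998 in replicate 3 and 10110 and 14788 in replicate 4. None of these *hlh-3* and *hlh-6* regions overlapped one of the other replicate.

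The Atonal relative *lin-32* (X:2229055-2230122, reverse strand), needed for touch receptor neurons and male sensory rays, had 1 pooled region, at X:2233845-2234324, with a pooled signal of 51.8, rank 1857. The replicates gave 26.9 and 19.9, and their summits lay 4 and 0 bp from the pooled one. It was the only one of the 9 pooled regions with a summit of each replicate within 100 bp. Its summit lay 3963 bp upstream of *lin-32* and 239 bp from the 5' end of *T14F9.2*, which is transcribed away from it, so the nearer gene was not the proneural one.

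The NeuroD relative *cnd-1* (III:5240591-5244639, reverse strand), which acts in motor neuron fate, held 4 of the 9 pooled regions. Its window, 9049 bp, was the longest of the 8, against a median of 7026 bp over all genes. Of all genes, whatever the length of their window, 4.46% had 4 or more. The highest, at III:5244964-5245443 with its summit 565 bp upstream, had a pooled signal of 55.8, rank 1516, and the highest replicate 3 signal of any region in the 8 windows, 35.97, rank 969. Replicate 4 gave 15.8 there, rank 9029, at a summit 260 bp away. The region at III:5243980-5244459, in the annotated 5' UTR of 2595 bp and 419 bp inside the gene, had a pooled signal of 46.4 and the highest replicate 4 signal in the windows, 24.9. Replicate 3 gave 22.0 there, but at a summit 392 bp from the pooled one, and it also had a region of 17.7 closer to it. The remaining 2 lay further upstream. The one at 3383 bp, with a pooled signal of 33.1, matched replicate 3 alone (23.0), and the one at 4075 bp, with a pooled signal of 27.7, matched replicate 4 alone. Replicate 4 had a region of 15.6 at the same summit and one of 21.0 at a summit 242 bp away. The Neurogenin gene *ngn-1* (IV:2626062-2628271, reverse strand) had no pooled region and 1 region in replicate 4, 124 bp upstream, with a signal of 13.1, rank 14909 of 15533.

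Over the 9 pooled regions, 3 overlapped a region of both replicates by at least 1 bp, 4 one of replicate 3 alone and 2 one of replicate 4 alone. Over all pooled regions 58.2% were matched in both, and over those outside the optimal list 55.9%. Of the 16 regions of replicate 3 in the windows, 5 overlapped a region of replicate 4, where 46.2% of that whole list did, and 4 of the 12 of replicate 4 overlapped one of replicate 3, where 47.6% did. The overlapping ones lay at *hlh-2*, *lin-32* and *cnd-1*.

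**Figure D2:**
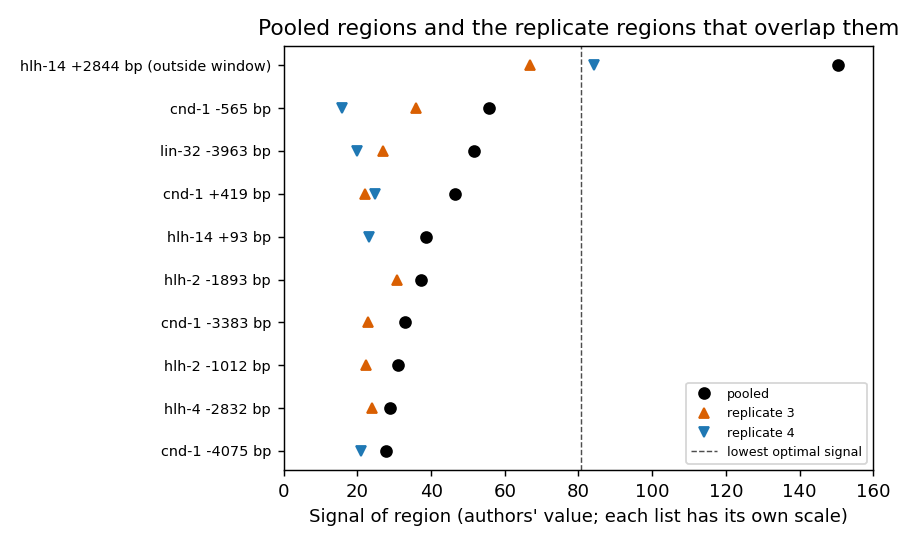
Signal (x axis, the authors' value, on a separate scale for each list) of the 9 pooled regions in the windows and of the region beyond *hlh-14*, each named by its gene and the distance of its summit from the 5' end (y axis). Black circles are the pooled list, triangles the overlapping region of highest signal in replicates 3 (up) and 4 (down). Both triangles are present in 3 of the 9, and the region beyond *hlh-14* lies apart, at 150.5, with 66.9 and 84.3 in the replicates.

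Sequence matches at the 9 pooled regions are given beside the shares over all pooled regions, and were not tested against them. CCGGAA, on either strand within 100 bp of the summit, was found in 2 of the 9, against 14.1% of all pooled regions. These were the *hlh-4* region, at III:9741921-9741926 and 37 bp from its summit, and the *cnd-1* region inside the 5' UTR, 13 bp from its summit. The octamer ACCGGAAG was in none of the 9, against 3.31% of all pooled regions. The E-box CANNTG, to which the proneural proteins themselves bind, was in 4 of the 9, against 55.2% of all pooled regions. The upstream *cnd-1* region held CAGGTG and CACGTG. On either strand, CAGGTG was in 2 of the 9, against 6.63% of all pooled regions. The tRNA B-box hexamer GGTTCG was in none of the 9, against 5.57% of all pooled regions. A match names letters in a window and not a bound site, and its absence says nothing of ETS-7.

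Beyond the window, as far as 5000 bp past the 3' end, a choice made after the data were seen, 7 more pooled regions lay at 4 of the genes, and 2 of them were optimal. The share of all genes with a pooled region in that stretch was not counted, so the 4 genes cannot be set against it. With the windows extended in this way, 2 of the 8 genes had an optimal region, against 7.77% of all genes, but 1 of these is *hlh-14*, whose region chose the genes. The other is *lin-32*. Its region at X:2227053-2227532, 1762 bp past the 3' end and 2829 bp from the 5' end, had a pooled signal of 84.7, rank 525, and signals of 49.2 and 36.7 in the replicates. Its summit lay 31 bp from a tRNA gene, and what part that gene has in the signal was not tested. At *hlh-3*, which had no pooled region in its window, 2 lay past the 3' end. That at 1845 bp had a pooled signal of 43.7, with 15.1 and 27.6 in the replicates, and that at 714 bp had 38.8, with 19.1 and 20.5. Both *hlh-3* regions thus overlapped a region of each replicate by at least 1 bp. For the farther, the replicate 3 region ranked 15098 of 16227, near the lowest signal of that list, 14.7. For the nearer, the summit lay 894 bp past the 3' end in replicate 3 and 738 bp past it in replicate 4. The farther held CCGGAA within 100 bp of its summit, as did 14.1% of all pooled regions.

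The values on the sides of the window limits show how much they decide. At *hlh-6* a replicate 4 region of 13.1 was inside by 2 bp, and a pooled region of 30.2 was outside by 553 bp. At *hlh-4* a replicate 3 region of 15.99 was outside by 12 bp, past the 3' end. At *hlh-14* a replicate 4 region of 15.6 was outside by 126 bp.

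Related genes were read in the same windows. Of 33 other bHLH genes, 2 had an optimal region, 6.06%, and 17 a pooled one, 51.5%, near the shares over all genes. The highest was at *hlh-27*, a member of the Hairy/Enhancer of Split-like REF-1 family, at II:5543453-5543932, with a pooled signal of 150.4 and replicate signals of 95.6 and 54.5. Its summit lay inside the snRNA gene *sls-2.2* and 3480 bp upstream of *hlh-27*, with the 5' end of *ins-13* nearer, at 1171 bp. The other was at *mdl-1*, which encodes a Mad-like partner of the Max protein, at X:6741971-6742450, 140 bp upstream of the 5' end, with a pooled signal of 94.8 and replicate signals of 49.5 and 44.5. The nearest other protein-coding 5' end was 8910 bp from that summit.

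Notch signalling restrains proneural activity between neighbouring cells. Of 11 Notch pathway genes, 2 had an optimal region, 18.2% against 5.15% of all genes, and 9 a pooled one, 81.8% against 53.4%. Their windows had a median of 9332 bp, longer than the 7026 bp of all genes, and neither count was tested. At *lag-2*, which encodes a Notch ligand, the region at V:3186314-3186793 lay 1789 bp upstream, with a pooled signal of 83.3 and replicate signals of 33.7 and 48.2. At *sel-8*, which encodes the Mastermind-like coactivator, the region at III:3620562-3621041 lay inside the gene, 6340 bp from its 5' end, with a pooled signal of 82.6 and replicate signals of 27.9 and 58.1. Both pooled signals were just above the lowest of the optimal list.

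Of 28 genes for transcription factors of neuronal fate and for the death of the NSM sister cell, in which HLH-2 and HLH-3 act through *egl-1*, 1 had an optimal region, 3.57% against 5.15% of all genes, and 22 a pooled one, 78.6% against 53.4%. Their windows were also longer, with a median of 9912 bp, and neither count was tested. The optimal region was at *lim-6*, a LIM homeobox gene, at X:1068967-1069446, 3245 bp upstream, with a pooled signal of 153.3 and replicate signals of 72.0 and 75.1. The 5' end of *mksr-1*, a ciliary transition zone gene, was 78 bp from that summit. Among genes with a pooled region, the median of the highest pooled signal was 43.96 for the other bHLH genes, 39.9 for Notch pathway genes, 40.3 for the neuronal genes and 38.6 for all protein-coding genes.

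**Figure D3:**
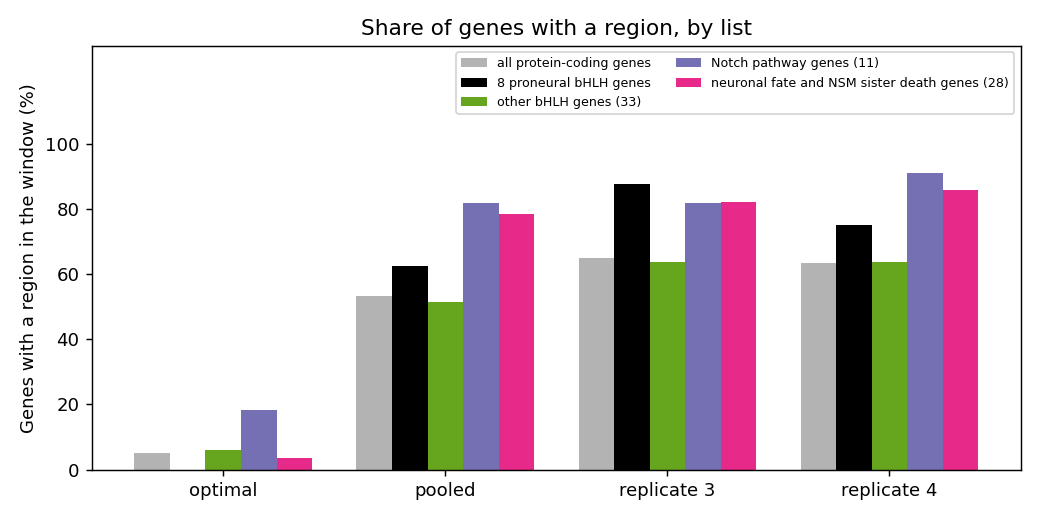
Percent of genes with at least 1 region in the window (y axis) in each of the 4 lists (x axis), for all 19985 protein-coding genes, the 8 proneural bHLH genes and the 3 related lists, with the number of genes in brackets. The proneural genes have no bar in the optimal list, where all genes stand at 5.15%, and 5 of the 8 have a region in the pooled list, where all genes stand at 53.4%. The windows of the Notch pathway and neuronal genes are longer.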

How the data were processed

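The deposited files used are lists of regions in narrowPeak format on ce11, 1 for each replicate, 1 for the pooled replicates and the optimal list. Per the deposited file descriptions, the authors made the replicate and pooled lists from aligned reads of the immunoprecipitation with a control, and the optimal list from the other 3. The signal in each is the deposited value. Aligner and peak caller: not given in the sources used here. Lists on ce10 and control libraries were not used here. All 595 optimal regions are also pooled regions.

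Genes and 5' ends are those of Ensembl 115 (WBcel235, the same assembly as ce11), and the sequence is the RefSeq copy of that assembly. Positions are 1-based. The sequence at the *lin-32* region is not reported here. A pooled region was matched to the region of highest signal in a replicate that overlaps it by at least 1 bp. Signals were compared within a list. No test was made. The labels call the replicates biological. The genes and lists were chosen with earlier results of these data known. Named genes are the 8 genes, the neighbours of their regions, and genes of the other lists with an optimal region. The counting was tested on simulated data. Software versions were 3.11.15 for Python, 2.4.6 for NumPy, 2.3.3 for pandas and 3.10.9 for matplotlib.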

Additional observations from a re-analysis of the deposited data

How the results depend on the processing

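The count of proneural genes with an optimal region was 0 in the main setting. Windows from 2000 or 1000 bp upstream, promoters alone, the nearest 5' end and the upper 297 optimal regions can only lower a count. Their 0 was therefore fixed in advance and says nothing further. Settings that could have raised the count also gave 0. These were overlap in place of summit, and the 595 highest regions of the replicate 4 list or of the replicate 3 list. A window from 10000 bp upstream, added once the data had been seen, gave 0 as well. The share of all genes in these settings was not counted, so their 0 cannot be set against it. In the main setting that share was 5.15%. With the window extended 5000 bp past the 3' end, also added later, the count was 2. The count with a pooled region, 5, was 3 with 2000 bp upstream and 2 with 1000 bp or with promoters alone. It was 3 where the gene had to have the nearest 5' end. It was 5 with overlap in place of summit, and 6 with 10000 bp upstream or with 5000 bp past the 3' end. The shares of all genes with a pooled region in these settings were not counted, so what the changes say of the 8 genes is not known. In the list of replicate 4 alone the count was 6, against 63.5% of all genes, and in that of replicate 3 alone it was 7, against 64.9%. These repeat the counts given above, from lists longer than the pooled one, and no regions were called again. Pooled regions matched in both replicates numbered 3, and 1 when summits had to lie within 100 bp. They numbered 2 when 50% of the shorter region had to overlap. The shares of all pooled regions at these stricter limits were not counted. The ratio of the *hlh-14* region to the median of the highest regions was 1.21 in the replicate 3 list and 1.52 in that of replicate 4, as given above. CCGGAA was in 2 of the 9 within 50 bp of the summit, against 8.87% of all pooled regions. In whole regions it was in 2 of the 9, against 24.5%. The E-box was in 3 of the 9 within 50 bp of the summit, against 33.6%, and in 6 of the 9 in whole regions, against 83.5%. The CCGGAA count was thus 2 in each window, and only the share of all pooled regions beside it changed. No paired analysis was possible because there is 1 group. Depth is unknown, so the limit it sets on weak regions, such as those found in 1 replicate, cannot be given.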
